A study of Mus musculus with 4 samples.

Results

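Solute carriers are the membrane proteins that move nutrients, ions, metals and metabolites into and out of cells and organelles. The set described here holds 69 mouse solute carrier genes, of 22206 transcript clusters on the array. They were chosen from 2 tables that the authors deposited, which list the clusters that differed at least 2-fold between wild-type (WT) cultures with and without interleukin-4 (IL-4), and between knockout (KO) and WT cultures with IL-4. A gene entered where a table gave it as the sole symbol and the symbol had the form of a solute carrier name. The cystine carrier Slc7a11 was left out by that rule. The first table held 59 of the members and the second 20, with 10 in both, and together they covered 34 solute carrier families. Members that differed less than 2-fold in both of these comparisons had no symbol to be read by, so the set says nothing of carriers that stayed near their starting level.

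The study measured RNA from primary keratinocytes, the epithelial cells of the epidermis, on Clariom S Mouse arrays. All cells came from male mice and were kept in EpiLife medium. The 4 groups were WT untreated, WT with recombinant IL-4 at 100 ng/ml for 12 h, KO untreated and KO with the same IL-4, with 1 array each. The labels call the mutant genotype HMGB1 KO and the design text names those mice K5-HMGB1; its driver, the cells that lack the protein in the animal, the age of the mice and how many animals gave each culture are not stated in the labels. HMGB1 is an abundant chromatin protein that can also act outside the cell as a danger signal, and IL-4 is a cytokine of type 2 immunity. With no replicate, no difference below has a replicate error or a p-value, and differences between dishes or animals cannot be told apart from those of genotype or treatment. Fewer cells of a type and less RNA per cell cannot be told apart either.

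All values are the authors' deposited log2 values, and all differences are log2 differences between 2 arrays. "Rose", "fell", "higher" and "lower" are used where a difference was at least 2-fold (1 on the log2 scale) and the highest of the 4 values reached 5.13, the median of all transcript cluster values. Of the members, 59 reached that level and 10 did not, and over all clusters 11854 reached it. The negative control rows had a 95th percentile of 9.21. All 4 values of 40 members lay below it, 14 members lay above it on every array, and between 23.1% and 27.7% of negative control rows themselves differed 2-fold in a comparison. A difference whose values both lie under 9.21 is called dim below, and its size is uncertain. The highest deposited value was 19.93, more than a 16-bit scanner count allows on a log2 scale, so a further transformation is possible and fold sizes are taken at face value. The targeted gene, Hmgb1, was at 14.71 and 14.17 in WT without and with IL-4 and at 7.97 and 7.60 in KO. The suprabasal keratins Krt1 and Krt10, the only 2 of 6 listed keratinocyte markers with a symbol in the tables, were at 16.62 and 11.98 in WT untreated, 17.35 and 13.94 in KO untreated, 7.49 and 6.80 in WT with IL-4 and 7.99 and 8.70 in KO with IL-4, so these differentiation markers were lower with IL-4 in both genotypes, and Krt10 was higher in KO. Their part in the carrier values was not tested.

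Keratinocytes take up amino acids largely through exchangers and sodium-coupled carriers. The exchangers of the Slc7 family work as light chains bound to a heavy chain of the Slc3 family, except for its cationic amino acid carriers, which work alone. Monocarboxylate carriers of the Slc16 family move lactate and related acids, and Slc2 proteins move hexoses down their gradient. In the epidermis, zinc and fatty acid carriers are known to be needed for a normal skin barrier.

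Letters of 4 regulatory motifs were looked for in the 250 bases before each RefSeq start listed for a gene, on both strands, in GRCm38.p6. RefSeq promoter entries were used for 52 of the 69 member genes and for 27025 genes in all. Slc7a3, Slc7a5 and Slc4a11 were among the members without an entry, so they were not searched. The antioxidant response element core, TGACNNNGC, was present for 8 member genes, 15.4% of them, against 11.5% of all genes with an entry. The hypoxia response element core, ACGTG, was present for 12, or 23.1%, against 18.5%. The STAT6 site, TTC and GAA with 4 bases of any kind between them, was present for 3, or 5.77%, against 6.76%, and the amino acid response element letters TTGCATCA for none, against 0.918% of all genes. At that share few matches could be met among 52 genes, so nothing is read from their absence. The stretches below are examples chosen from members with a match, in capitals the motif letters, read 5′ to 3′ on the gene's strand. No stretch is shown for Slc7a3, Slc7a5, Slc7a8 or Slc4a11, for which no match was found or no entry was used. In Slc16a3, Slc6a9, Slc7a6 and Slc43a2 the listed start lies within the span of the gene, so only 30 bases are shown, and in Slc7a6 the antioxidant letters overlap the hypoxia letters.
Slc16a3, ACGTG in 2 places, chr11:120949034-120949063, plus strand: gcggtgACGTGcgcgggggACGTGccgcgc
Slc6a9, TGACNNNGC before one start, chr4:117849293-117849322, plus strand: gtgaaagtaatTGACGCTGCccagcccggc
Slc6a9, TGACNNNGC before another start, chr4:117855491-117855520, plus strand: tgtttccggctTGACTTGGCtgcttggtat
Slc7a6, TGACNNNGC, chr8:106168842-106168871, plus strand: tccggtgcgagTGACGTGGCgtgggcgggg
Slc43a2, STAT6 site, chr11:75531891-75531920, plus strand: cgggatccgcTTCTATGGAAacgggctaat
Slc10a6, STAT6 site, chr5:103629529-103629608, minus strand: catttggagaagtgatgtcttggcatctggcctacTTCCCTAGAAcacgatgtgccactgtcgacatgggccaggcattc
Slc5a1, ACGTG on both strands, chr5:33104039-33104118, plus strand: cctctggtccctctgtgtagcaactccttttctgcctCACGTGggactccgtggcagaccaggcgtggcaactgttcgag
A match describes the letters only, and which of a gene's starts the array's probes cover was not looked at.

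Of the 5 carriers of the Slc7 and Slc43 families, 3 rose and 2 fell with IL-4 in WT, 2 rose in KO, and 4 passed the threshold between the genotypes in untreated cultures, 2 in each direction. Over all clusters that reached the level filter, 10.7% rose and 9.26% fell with IL-4 in WT, 8.93% rose and 9.33% fell in KO, and 1.35% were higher and 3.16% lower in untreated KO. All 5 were listed by their IL-4 difference in WT, which uses the WT untreated array, so the WT and untreated genotype counts are a description only, and the same holds for the counts of each class below. The 2 that rose in KO, Slc7a3 and Slc7a8, were also listed through the KO array with IL-4. Slc7a8 (TC1400002067.mm.2; protein-coding like those below, chromosome 14, 54722215 to 54781886, GRCm38.p6) encodes LAT2, a light chain that exchanges neutral amino acids. Its log2 value was 7.46 in WT untreated, 11.46 in WT with IL-4, 9.52 in KO untreated and 12.95 in KO with IL-4. It thus rose with IL-4 in both genotypes, by 4.0 in WT and 3.43 in KO, and was higher in KO at both treatments, by 2.06 and 1.49. Slc43a2 (TC1100001072.mm.2; chromosome 11, 75529915 to 75577575), which encodes LAT4, a facilitative carrier of large neutral amino acids, was at 6.50 in WT untreated and between 8.74 and 9.40 on the other 3 arrays. WT untreated was the single low array, and the response was 2.51 in WT and 0.66 in KO, dim in WT. Untreated, Slc43a2 was 2.24 higher in KO, also dim, and with IL-4 the genotypes differed by 0.39. The STAT6 letters printed above for Slc43a2 lie 211 to 202 bases before its listed start.

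Slc7a3 and Slc7a5 had the opposite order. Slc7a3 (TC0X00002710.mm.2; chromosome X, 101079146 to 101090452) encodes CAT3, a carrier of arginine and lysine. It was at 11.18 in WT untreated, 9.36 in WT with IL-4, 6.98 in KO untreated and 8.15 in KO with IL-4. Both WT values lay above both KO values. Slc7a3 fell by 1.82 with IL-4 in WT and rose by 1.17 in KO, a rise between 2 dim values, and it was the only member to pass the threshold in opposite directions in the 2 genotypes. The KO minus WT difference was -4.20 without IL-4 and -1.21 with it.

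Slc7a5 (TC0800003059.mm.2; chromosome 8, 121881146 to 121907686) encodes LAT1, the main exchanger of leucine and other large neutral amino acids in dividing cells. It was the brightest of these carriers, at 14.76 in WT untreated, 13.24 in WT with IL-4, 12.59 in KO untreated and 13.28 in KO with IL-4. WT untreated was the high array and the 3 others lay within 0.70 of each other. The gene fell by 1.52 with IL-4 in WT, its difference in KO was 0.70, and it was lower in KO untreated, by -2.18, with a difference of 0.04 under IL-4. All 4 values lie above 9.21. Slc7a6, the light chain y+LAT2 that exchanges cationic for neutral amino acids, was at 9.46 and 10.94 in WT and 10.06 and 10.24 in KO. It rose by 1.48 in WT, against 0.18 in KO, and did not pass the threshold between genotypes.

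**Figure D1:**
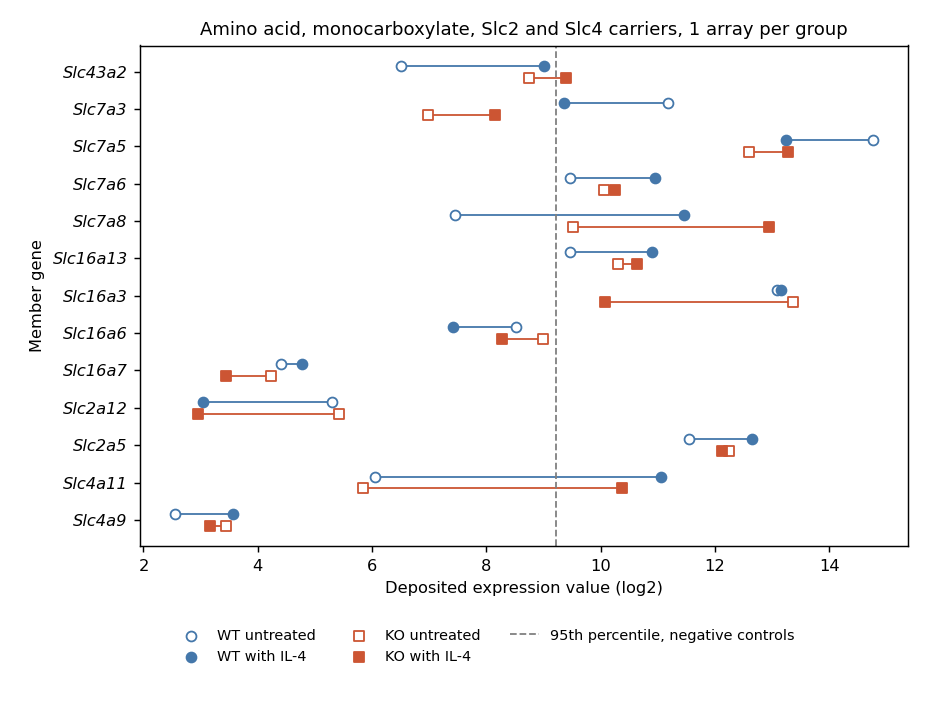
Deposited log2 value (horizontal axis) of the 13 members of the Slc7, Slc43, Slc16, Slc2 and Slc4 families, 1 array per group; circles are WT and squares KO, open symbols untreated and filled symbols IL-4, joined within a genotype, and the dashed line is the 95th percentile of the negative controls at 9.21. The lines of Slc7a3 and Slc7a5 run in opposite directions in WT and KO (for Slc7a5 in KO by 0.70, short of 2-fold), Slc7a8 and Slc4a11 rise in both, and Slc16a3 is apart only in KO with IL-4, at 10.08.

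A further 15 members belong to families that carry amino acids or the amines made from them (Slc1, Slc3, Slc6, Slc36 and Slc38). Slc6a9, which encodes the glycine carrier GlyT1, had its highest value on the same array as Slc7a3 and Slc7a5. Slc6a9 was at 12.33 in WT untreated, 10.70 in WT with IL-4, 10.77 in KO untreated and 11.41 in KO with IL-4. WT untreated was again the high array: the gene fell by 1.63 with IL-4 in WT, its difference in KO was 0.64, and KO was lower by -1.56 untreated, with a difference of 0.72 under IL-4. The left-out carrier Slc7a11, which imports cystine for glutathione synthesis, was also lower in untreated KO, by -1.46. With IL-4 it was 1.57 higher in KO. Slc7a3, Slc7a5 and Slc6a9 were listed by their fall in WT, Slc7a3 also by the genotype difference with IL-4, so the array of untreated WT stands both in their selection and in the untreated genotype comparison.

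Slc6a14, a carrier of neutral and cationic amino acids with a broad range, fell in both genotypes, from 10.65 to 9.29 in WT and from 9.91 to 7.91 in KO. It was lower in KO with IL-4, by -1.38. Slc6a20a, a sodium-coupled carrier of proline and other imino acids, fell by 3.43 in WT, from 8.61 to 5.18, and by 3.21 in KO, from 9.06 to 5.85, dim in both genotypes. Its neighbour and close relative Slc6a20b fell by 1.02 in WT and had a difference of -0.48 in KO, both dim, and whether the probes tell these 2 genes apart was not tested.

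Other members of these families were higher with IL-4. Slc38a10, a relative of the glutamine carriers, rose in both genotypes, from 11.47 to 12.59 in WT and from 11.07 to 12.87 in KO. Slc38a6 rose by 1.52 in WT and 1.66 in KO. Slc38a1, a sodium-coupled glutamine carrier, rose by 2.17 in WT, against 0.80 in KO, and was dim throughout. The serotonin carrier Slc6a4 was at 6.44, 8.75, 6.67 and 6.55 in WT untreated, WT with IL-4, KO untreated and KO with IL-4. WT with IL-4 was the single high array, so Slc6a4 rose by 2.31 in WT and was lower by -2.21 in KO with IL-4, and all 4 values are dim. Slc6a4 was listed by both of these differences, which share that array, so they are a description only. The dopamine carrier Slc6a3 rose in both genotypes, by 1.31 and 1.68, dim, with no value above 5.73.

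Among the remaining members of these families, Slc1a1, a glutamate and cysteine carrier, rose by 1.31 in WT and was lower by -1.58 in KO with IL-4. Slc36a4 fell by 1.56 in WT. Slc38a4 was lower in KO with IL-4 by -1.35 and Slc6a17 was higher by 1.20. Each of these differences is dim. The heavy chain gene Slc3a1 and the neutral amino acid carrier gene Slc6a19 did not reach the level filter, with highest values of 3.95 and 5.00. Slc3a1 is the only Slc3 member, and the level of Slc3a2, another heavy chain gene, was not read.

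Of the 4 Slc16 members, Slc16a3 had the largest difference between the genotypes with IL-4 of the whole set. Slc16a3 (TC1100002052.mm.2; chromosome 11, 120948484 to 120959000) encodes MCT4, which exports lactate from cells with active glycolysis. It was at 13.09 in WT untreated, 13.16 in WT with IL-4, 13.36 in KO untreated and 10.08 in KO with IL-4. KO with IL-4 was the single low array, and the 3 others lay within 0.27 of each other. Slc16a3 thus fell by 3.28 with IL-4 in KO, against 0.07 in WT, while the genotypes differed by -3.08 with IL-4 and by 0.27 without it. The gene was listed through the KO and WT arrays with IL-4, so its fall in KO shares an array with the choice. In the authors' deposited table it differed 8.45-fold. All 4 values lie above 9.21, and the 2 ACGTG matches printed above lie 27 to 10 bases before the listed start.

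The other Slc16 members differed less. Slc16a13 rose by 1.43 in WT, from 9.46 to 10.89, against 0.33 in KO. Slc16a6, a carrier of taurine, fell by 1.12 in WT and had a difference of -0.71 in KO, dim in both. Slc16a7, the lactate and pyruvate carrier MCT2, did not reach the level filter, with values from 3.45 to 4.78. The proteins that chaperone Slc16 carriers to the membrane, Bsg and Emb, had no symbol in the tables.

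Sugar carriers that couple to sodium fell with IL-4 in both genotypes. Slc5a1 encodes SGLT1, the sodium-glucose cotransporter. Its log2 value was 10.24 in WT untreated, 6.06 in WT with IL-4, 8.27 in KO untreated and 3.85 in KO with IL-4. The untreated arrays were the higher ones in each genotype and KO was the lower genotype at each treatment, with IL-4 differences of -4.18 in WT and -4.42 in KO, and KO minus WT differences of -1.97 and -2.21. Only the WT untreated value lies above 9.21. Slc5a9, a relative that carries mannose and glucose, fell by 2.49 and 2.82, with all values dim. Slc5a8, which couples sodium to short-chain monocarboxylates, rose by 1.21 in WT, against -0.30 in KO, and was dim as well.

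The Slc2 family had 2 members. The glucose carrier Slc2a12 fell by 2.25 in WT and 2.48 in KO, from untreated values of 5.29 and 5.42, dim in both. Slc2a5, which carries fructose, lay above 9.21 on every array. It was at 11.54, 12.65, 12.24 and 12.12 in WT untreated, WT with IL-4, KO untreated and KO with IL-4. It rose by 1.11 in WT and its difference in KO was -0.12. The sugar phosphate exchanger Slc37a2 fell from 8.96 to 4.91 in WT, a dim difference of -4.05, and from 10.04 to 6.36 in KO, a difference of -3.67. It was higher in KO at both treatments, by 1.08 untreated and 1.45 with IL-4, and only the KO untreated value lay above 9.21. Its relative Slc37a1 fell by 1.34 and 1.37, dim in both genotypes.

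The Slc4 family held the member with the largest rise. Slc4a11 (TC0200004636.mm.2; chromosome 2, 130684107 to 130697519) encodes a membrane protein that moves protons, ammonia and water, known from the corneal endothelium. It was at 6.05 in WT untreated, 11.06 in WT with IL-4, 5.84 in KO untreated and 10.37 in KO with IL-4. The IL-4 arrays lay above the untreated arrays in both genotypes, the rises were 5.01 and 4.53, and the genotypes differed by -0.21 untreated and -0.69 with IL-4. In the authors' deposited table the WT arrays differed 32.26-fold. The untreated values lie under 9.21, so the size is uncertain. Slc4a9, an anion exchanger of the same family, did not reach the level filter, with a highest value of 3.57.

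Of the 7 metal and heme carriers, all of which reached the level filter and were listed by the WT difference, 6 rose and 1 fell with IL-4 in WT, and 5 rose and 1 fell in KO. Over all clusters 10.7% rose in WT and 8.93% in KO, and with so few members nothing particular to the class is read from this. Slc48a1, which moves heme out of endosomes and lysosomes, was the brightest, at 12.75 in WT untreated, 14.26 in WT with IL-4, 12.70 in KO untreated and 15.34 in KO with IL-4. It rose by 1.51 in WT and 2.64 in KO and was 1.08 higher in KO with IL-4. Slc39a4, the zinc importer ZIP4, which is mutated in the human skin disease acrodermatitis enteropathica, rose from 5.04 to 8.25 in WT, dim, and from 5.56 to 9.35 in KO. It was 1.10 higher in KO with IL-4. Slc39a13 (1.93 and 1.90 in WT and KO), the copper carrier family member Slc31a2 (1.63 and 1.03) and the divalent metal carrier Slc11a2 (1.44 and 1.12) rose in both genotypes. Slc41a2, a magnesium carrier, rose by 1.35 in WT, dim, and was 1.43 higher in untreated KO, dim. Slc39a8, an importer of zinc and manganese, was the one that fell, from 12.71 to 11.24 in WT and from 13.09 to 10.39 in KO. All its values lay above 9.21.

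Of 3 fatty acid carriers, Slc27a4 fell in both genotypes. This gene encodes FATP4, an acyl-CoA synthetase and fatty acid carrier needed for the skin barrier in mice. It was at 11.39 and 9.50 in WT and at 10.81 and 9.45 in KO. Slc27a6 rose by 2.06 in WT and 1.13 in KO, dim, and Slc27a1 rose by 1.36 in WT, against 0.32 in KO, also dim. Of the 5 mitochondrial carriers 4 rose in WT, by 1.18 to 1.33, of which Slc25a22, Slc25a43 and Slc25a53 were dim, and none of the 5 rose in KO, against 10.7% and 8.93% of all clusters. All 5 were listed by the WT difference, so the contrast between the genotypes is in part set by the choice. The aspartate and glutamate carrier Slc25a12 fell in both, by 1.08 and 1.31, from untreated values of 11.55 and 11.50. Slc25a51, which brings NAD into mitochondria, was the brightest of the 4, at 10.92 and 12.10 in WT and at 11.08 and 11.84 in KO.

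Carriers of peptides and organic anions included large falls shared by the genotypes. Slc15a1, the peptide carrier PEPT1, was at 12.52 and 9.29 in WT without and with IL-4 and at 12.66 and 9.84 in KO, differences of -3.23 and -2.82 with every value above 9.21. Slc10a6, a carrier of sulfated steroids, fell from 9.61 to 5.97 in WT and from 9.41 to 6.92 in KO. Slc46a2 fell by 1.57 and 1.72, and the carnitine carrier Slc22a5 rose by 1.55 and 1.14, all dim. The thiamine carrier Slc19a3 fell by 1.82 in WT, against -0.51 in KO, and Slc22a15 rose by 1.01 in WT, against -0.58 in KO, both dim. Slc22a18, an organic cation carrier family member, was lower in KO with IL-4, by -1.53, dim. Among inorganic ion carriers, the potassium-chloride cotransporters Slc12a4 and Slc12a7 rose in WT by 1.35 and 2.67, and in KO the differences were 0.85 and 1.53, dim for Slc12a7. The sodium-phosphate cotransporter Slc34a2 rose by 1.98 in WT, against 0.24 in KO, dim, and the sodium-proton exchanger Slc9a8 rose by 1.38, against 0.37.

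**Figure D2:**
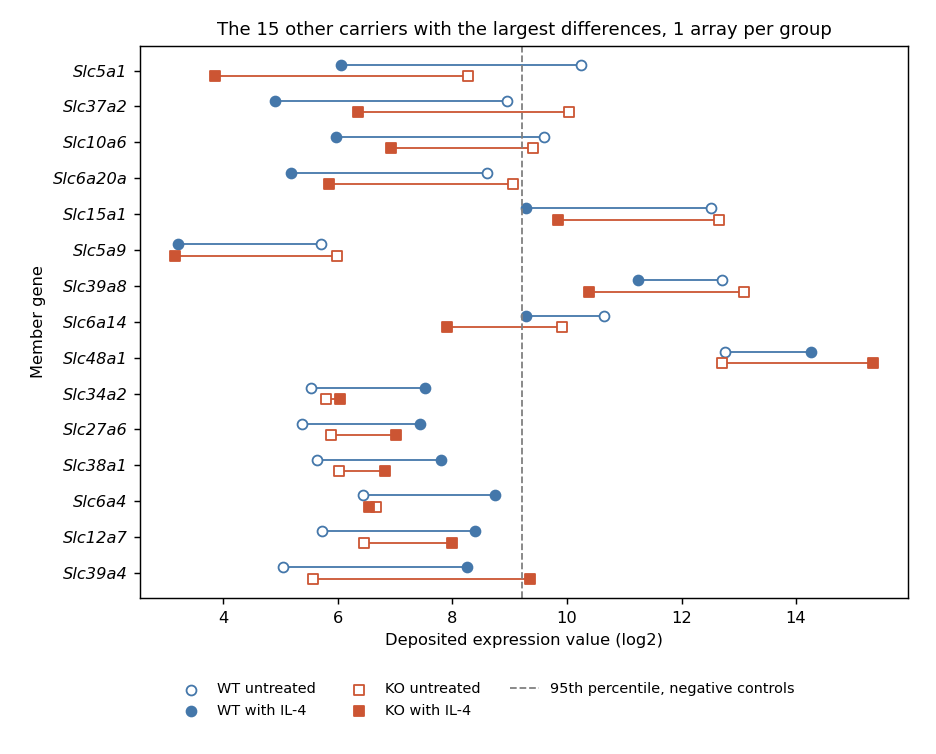
Deposited log2 value (horizontal axis) of the 15 members outside the Slc7, Slc43, Slc16, Slc2 and Slc4 families with the largest difference in any comparison, ordered by the IL-4 difference in WT, with symbols and the dashed line at 9.21 as for the families above. Slc15a1, Slc39a8 and Slc48a1 have all 4 values to the right of the line, and 7 of the 15 have all 4 to its left.

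Over the whole set, 33 members rose and 20 fell with IL-4 in WT, against a background of 10.7% and 9.26% of all clusters that reached the level filter. These members were largely chosen by that difference, so the counts are no result about them. In KO, 15 rose and 14 fell, against 8.93% and 9.33% of all clusters. The second table used the KO array with IL-4 and held 20 members, 10 of them also in the first. These KO counts are therefore in part set by the choice, and no excess is read from them. The KO arrays share no array with the WT pair that made the first table. Of the 59 members in that table, 48 (81.4%) had the same direction in KO, and of all 2610 clusters in it 90.8% did. Of the 59, 26 (44.1%) passed the threshold in KO in the same direction, 13 up and 13 down, against 53.1% of the table's clusters. The median IL-4 difference in KO was 0.24 over the 69 members, 0.04 over all clusters and 0.07 over those that reached the level filter. The WT comparison listed 35 members as higher and 24 as lower, so the members' median is in part set by the choice. The animals of a genotype may have served both treatments, so pairs that share no array are not shown to be independent.

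**Figure D3:**
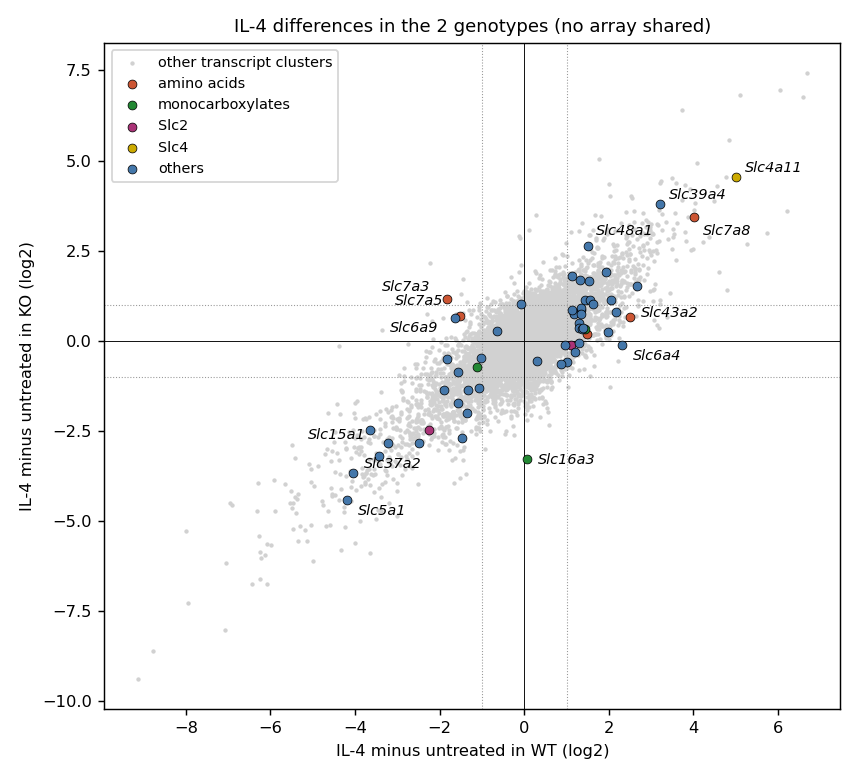
IL-4 minus untreated log2 difference in WT (horizontal axis) and in KO (vertical axis) for the 59 members that reached the level filter, coloured by substrate group, over all other clusters that did (grey); dotted lines mark 2-fold. Slc4a11, Slc7a8 and Slc39a4 lie at the upper right, Slc5a1 and Slc37a2 at the lower left, and Slc7a3 (-1.82 and 1.17) and Slc16a3 (0.07 and -3.28) away from the diagonal.

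Between the genotypes, 4 members were higher and 4 lower in untreated KO, against 1.35% and 3.16% of all clusters. The higher ones were Slc43a2, Slc7a8, Slc41a2 and Slc37a2, and the lower ones Slc7a3, Slc7a5, Slc5a1 and Slc6a9. These 8 were all listed in the WT table, which shares the WT untreated array with this comparison, so these directions are not independent of the choice. With IL-4, 6 members were higher and 10 lower in KO, against 1.7% and 3.78% of all clusters, a difference by which 20 members were chosen. Of those 20, 14 (70.0%) had the same direction in untreated cultures, whose arrays did not enter the second table, and so had 62.1% of its 898 clusters. The threshold was passed in that direction by 4 of the 20 (20.0%), against 11.9% of the table's clusters: Slc7a8 and Slc37a2 were higher and Slc7a3 and Slc5a1 lower in KO at both treatments. With IL-4 the differences of Slc37a2 and Slc5a1 were dim, so their sizes there are uncertain.

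**Figure D4:**
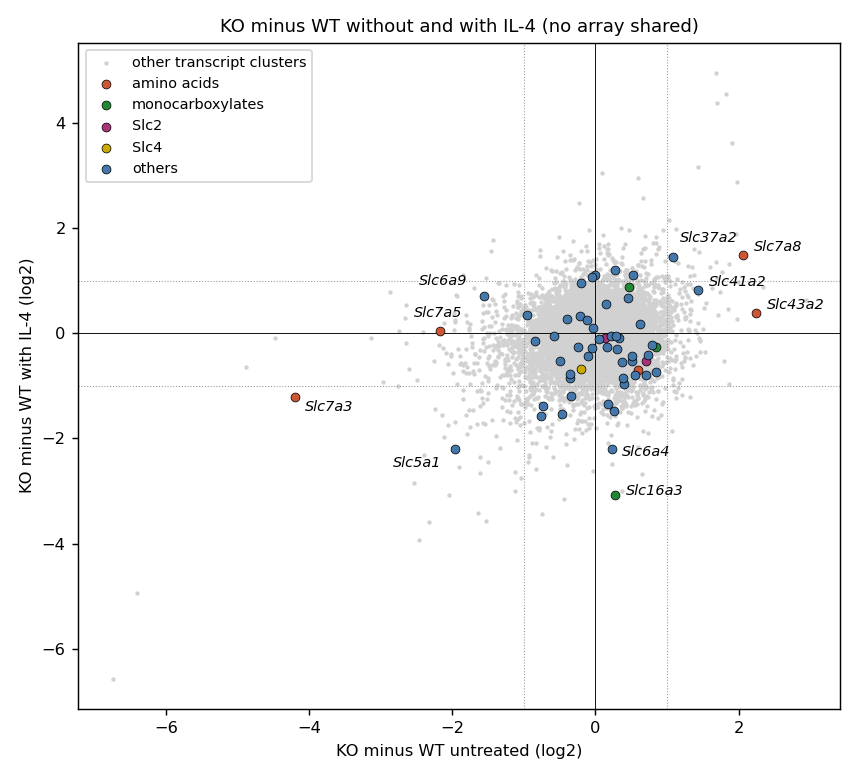
KO minus WT log2 difference in untreated cultures (horizontal axis) and with IL-4 (vertical axis) for the same 59 members and all other clusters that reached the level filter (grey); dotted lines mark 2-fold. Slc7a8 lies beyond 2-fold at the upper right, Slc7a3 and Slc5a1 at the lower left, and Slc16a3 and Slc6a4 differ with IL-4 alone, by -3.08 and -2.21.

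The signed difference of the IL-4 responses, KO minus WT, reached 2-fold and was positive for 7 members and negative for 17, against 4.59% and 5.8% of all clusters. The sign does not give which genotype responded more. Slc10a6, among the 7, had responses of -3.64 in WT and -2.48 in KO, a smaller fall in KO. Slc39a8, among the 17, had -1.47 in WT and -2.70 in KO, a larger fall in KO. Members chosen for a large WT difference tend to have a smaller one in KO, so no preference is read from these counts. The 7 were Slc7a3 (2.99), Slc6a9 (2.27), Slc7a5 (2.22), Slc19a3 (1.31), Slc10a6 (1.16), Slc48a1 (1.13) and Slc24a5 (1.11). The largest of the 17 were those of Slc16a3 (-3.35), Slc6a4 (-2.43), Slc43a2 (-1.85) and Slc34a2 (-1.74). All 4 values lie above 9.21 for Slc7a5, Slc6a9, Slc48a1 and Slc16a3 among those named here.

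Some members are known from pigment cells. Slc24a5 and Slc45a2, carriers of the melanosome, were at 5.66 and 4.83 in KO with IL-4 and at 4.55 and 3.72 in WT with IL-4. Slc24a5 was the higher in KO by 1.11 and rose with IL-4 there by 1.04, dim in both, and Slc45a2 did not reach the level filter. Of 5 listed melanocyte markers 4 had a symbol in the tables, and the log2 of their summed level was 13.11 in WT untreated, 13.12 in KO untreated, 12.07 in WT with IL-4 and 13.64 in KO with IL-4. Tyrp1 was the brightest on every array, from 11.83 in WT with IL-4 to 13.46 in KO with IL-4, so the sum mostly follows Tyrp1. The IL-4 difference in KO was 0.85 for Tyrp1, but -0.27 for Dct, -1.58 for Pmel and -0.86 for Tyr. Tyr, a defining marker, had no value above 4.86. WT with IL-4 was the low array for the markers, and their part in the carrier values was not tested. For Vim and Sparc, 2 of 6 listed fibroblast markers, the summed level was 11.81 and 10.94 in WT without and with IL-4 and 12.73 and 12.76 in KO. The sum differed past 2-fold between the genotypes with IL-4 only, and its part was not tested either. Taken singly, Vim was also higher in untreated KO, by 1.13, and Sparc differed there by 0.80. Of 4 immune cell markers none had a symbol in the tables.

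Genes that work beside solute carriers were read in the same cultures. Of 14 listed subunits and regulators of the sodium pump, which builds the sodium gradient that Slc5 and Slc6 carriers use, 4 were in the tables. The beta subunit gene Atp1b1 rose from 7.07 to 11.91 in WT and from 6.43 to 11.99 in KO, while another, Atp1b3, fell from 15.37 to 13.65 and from 15.63 to 14.15. The regulators Fxyd3 and Fxyd6 fell in both genotypes, dim for Fxyd6. The water and glycerol channels Aqp3 and Aqp9 fell by 4.76 and 5.41 in WT and by 4.56 and 4.77 in KO. The carbonic anhydrase genes Car12 and Car13, whose enzymes interconvert carbon dioxide and bicarbonate, fell, with differences of -3.49 and -3.56 in WT and -4.95 and -4.20 in KO. Another in the tables, Car2, had differences of 2.49 in WT and 1.55 in KO. Its highest value, 5.09 in WT with IL-4, lay just under the level filter, so it was not called. Of 3 carbonic anhydrase genes 2 thus fell, and that none rose rests on this filter. The genes of this paragraph were read only where a table named them for passing 2-fold. Over all clusters that reached the level filter, 10.7% rose and 9.26% fell in WT, and 8.93% and 9.33% in KO. Nothing is therefore read from the counts of these genes.

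Carriers of other superfamilies were divided. The tables named 10 ABC transporters, of which 9 reached the level filter, and 4 rose and 4 fell in WT, while 2 rose and 4 fell in KO. Abcc3, an exporter of conjugated organic anions, rose by 2.52 in WT and 4.01 in KO and was 1.96 higher in KO with IL-4. Abca12, which loads lipids into the lamellar granules of the epidermis, fell by 1.59 and 1.38. Of 5 organic anion transporters of the Slco family 4 reached the level filter, and 1 rose and 2 fell in each genotype. Both lists hold only genes named because they passed 2-fold in a table, and over all clusters 10.7% rose and 9.26% fell in WT and 8.93% and 9.33% in KO, so nothing is read from these counts. Slco2a1, the prostaglandin carrier, rose by 2.72 and 2.0. 

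The entry threshold cuts through a continuous range. The members closest to it in the first table were Slc22a15 (1.01), Slc4a9 (1.01) and Slc6a20b (-1.02), and the largest difference outside that table, just under 2-fold, was that of an unnamed cluster. In the second table the closest were Slc47a1 (1.01), Slc48a1 (1.08) and Slc39a4 (1.10). The 10 members that did not reach the level filter were Slc16a7, Slc17a3, Slc22a19, Slc3a1, Slc44a4, Slc45a2, Slc47a1, Slc4a9, Slc5a7 and Slc6a19, with highest values from 3.13 to 5.00.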

How the data were processed

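RNA from 4 primary keratinocyte cultures was measured on 1 Clariom S Mouse array each. The authors deposited a log2 value for each of 22206 transcript clusters and each of 6640 control rows, made with RMA in Affymetrix Expression Console 1.4, per the submitters' processing notes; the design text names another program. RMA corrects background and equalises distributions, so a global change in RNA is removed; array medians were 5.10 to 5.15. The authors also deposited 2 tables with a signed fold change (entered as a score, whose sign runs the other way from the differences given here), on annotation na36 for mm10, per the file headers. Their log2 columns matched the arrays within 0.068. The first held all 2610 clusters at 2-fold and the second 898 of 899.

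Members, lists, families and motifs were chosen with earlier results of these data known. Differences of log2 values were computed in Python 3.11.15 with pandas 2.3.3, and other scalings with limma 3.58.1 in R 4.3.3. The calling step was tested on simulated data. Text names every Slc7, Slc43, Slc16, Slc2 and Slc4 member, members of the other amino acid families, the 15 largest others and those whose responses differed 2-fold; others are examples chosen after their values were seen. All 69 symbols matched RefSeq (GRCm38.p6), which gave positions and sequences. Labels put 1 sample in each group, so no test was run, and precision is limited by having so few arrays.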

Additional observations from a re-analysis of the deposited data

Results flagged for a closer look

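For 5 members that reached the level filter the IL-4 difference had opposite signs in WT and KO and differed at least 4-fold between them. With 1 array per group these differences were not tested. Slc7a3 fell in WT and rose in KO, a difference between the responses of 2.99. Slc6a9 (2.27) and Slc7a5 (2.22) had the same order, with a fall in WT and 0.64 and 0.70 in KO. Slc16a3 (-3.35) fell in KO and was at 0.07 in WT, where cyclic loess gave -0.05 and so the same sign in both genotypes, and Slc6a4 (-2.43) rose in WT and was at -0.12 in KO. The values of Slc6a4 are all under the 95th percentile of the negative controls, as are both KO values of Slc7a3. Each of the 5 was listed through arrays that also enter the difference of its responses.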

How the results depend on the processing

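No paired analysis was possible because each group has 1 array and the labels give no shared replicate numbers. Centring the arrays on their medians, quantile normalization or cyclic loess reversed none of the called member differences and moved a difference by at most 0.03, 0.11 and 0.13. Member counts stayed within 1.5 times under these scalings, without the level filter, with that filter at the median of all rows (an alternative chosen after seeing the data) and with the log2 values of the deposited tables; no member had a symbol other than a transporter's, so leaving such symbols out changed nothing. Counts are given below as higher and lower, in the order IL-4 in WT, IL-4 in KO, KO minus WT untreated, KO minus WT with IL-4, and difference of the responses, where the reported ones were 33 and 20, 15 and 14, 4 and 4, 6 and 10, and 7 and 17. Asking the highest value to reach 9.21 gave 17 and 11, 10 and 9, 3 and 4, 4 and 4, and 5 and 7. Asking it of every value compared gave 7 and 8, 4 and 5, 0 and 2, 2 and 1, and 3 and 5. These counts are smaller because fewer members are tested, and the tables' members are mostly dim. A threshold of 1.5-fold gave 35 and 21, 25 and 17, 12 and 9, 11 and 19, and 10 and 24. A threshold of 4-fold gave 8 and 7, 4 and 10, 2 and 2, 0 and 3, and 3 and 2. The signal over background limits most of these sizes, since 40 of 69 members lay under the negative control percentile on every array.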
